A study of Mus musculus with 30 samples.

Results

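The Dppa (developmental pluripotency associated) genes Dppa2, Dppa3, Dppa4 and Dppa5a, together with Eras and Tcl1, were followed in mouse induced pluripotent stem cells (iPSCs) through differentiation and re-seeding. These 6 genes were taken by symbol from the deposited RNA-seq table of 22477 genes, all 6 were found, and the rule used no measured value. The samples were 30 RNA-seq libraries of 15 conditions, with 2 replicates each, which the authors combined into 1 FPKM value per condition, a level per length of transcript and per sequencing depth. All conditions came from the same kind of secondary iPSC, in which dox induces the reprogramming factors OSKM (Oct4, Sox2, Klf4, cMyc), and which carries GFP at Nanog and a nuclear RFP. The sources used here do not say whether the cells were 1 clone.

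In the time course, iPSCs cultured in serum/LIF were placed in 2i/LIF for at least 24 h and sampled at 0 h. Further samples were taken after 24, 36, 48, 60, 72 and 96 h without 2i and LIF. 2i is a pair of inhibitors, of MEK and of GSK3, that together with the cytokine LIF keeps pluripotent cells in a naive state. In the other 8 conditions, cells that had differentiated for 0, 24, 48 or 96 h were re-seeded for 48 h in serum/LIF, either without dox (–dox) or with dox (+dox) to switch on OSKM. A condition such as 48 h +dox therefore means cells differentiated for 48 h and then re-seeded with dox. The iPSCs were maintained on mouse embryonic fibroblast feeders, and in the colony assay 2i/LIF was withdrawn from cells on gelatin, while re-seeded cells were placed on feeders. Whether the RNA-seq cultures were grown in the same way is not stated. Each condition has 1 value, so no spread between replicates is available. No test, SD or p-value is given for any difference, and a gene was called higher or lower at a ratio of 2-fold or more, provided that 1 FPKM was reached on the higher side. Because the RNA came from whole cultures, fewer cells that express a gene and less RNA per cell cannot be told apart.

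Most of these genes were first known from preimplantation embryos, germ cells and pluripotent cells. Dppa2 and Dppa4 encode small nuclear proteins with a SAP domain that bind DNA together and are known to help activate the genes of the 2-cell embryo. Dppa3, also called Stella or PGC7, protects the maternal genome from loss of DNA methylation in the zygote and can hold back the methylation cofactor Uhrf1. Dppa5a encodes a KH-domain protein of the kind that binds RNA. Eras encodes a Ras-like protein that stays active without a stimulus and signals through PI3K in embryonic stem cells, and Tcl1 encodes a cofactor that binds and activates the kinase Akt.

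All 6 are protein-coding genes in Gencode M21 on mm10. Dppa4 (chr16:48283733-48294237) and Dppa2 (chr16:48303908-48319723) lie side by side on the plus strand with 9670 bases between them. Dppa3 (chr6:122626410-122630272) is on the plus strand near Nanog, and Dppa5a (chr9:78367052-78368177), Eras (chrX:7924276-7928607) and Tcl1 (chr12:105216750-105222793) are on the minus strand. RefSeq promoter windows, from 250 bases before to 50 bases after the start site on GRCm38.p6, were matched for 2 of the 6 genes. Both are shown, and they belong to the members with the highest (Eras) and the lowest (Tcl1) ratio to 0 h at 96 h. In the Eras window (chrX:7928558-7928857, minus strand) the capitals mark, from 5′ to 3′, a KLF core (GGGTGTG) that starts 101 bases before the start site and a SOX core (CATTGT) that starts 48 bases before it.
Eras: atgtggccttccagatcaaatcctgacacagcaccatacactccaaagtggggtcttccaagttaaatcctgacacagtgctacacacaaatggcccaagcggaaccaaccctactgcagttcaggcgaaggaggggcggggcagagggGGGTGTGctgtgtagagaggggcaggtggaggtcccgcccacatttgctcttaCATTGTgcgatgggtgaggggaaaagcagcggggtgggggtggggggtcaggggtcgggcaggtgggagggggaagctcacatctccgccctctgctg
The Tcl1 window (chr12:105222688-105222987, minus strand) held no match and is printed without capitals.
Tcl1: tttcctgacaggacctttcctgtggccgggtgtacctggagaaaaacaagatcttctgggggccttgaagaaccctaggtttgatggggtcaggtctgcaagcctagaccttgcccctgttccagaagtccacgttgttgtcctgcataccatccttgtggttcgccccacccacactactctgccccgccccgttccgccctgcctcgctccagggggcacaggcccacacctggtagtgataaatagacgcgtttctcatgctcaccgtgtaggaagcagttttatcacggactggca
The search covered both strands for an OCT core (ATGCAAA), the SOX core, the KLF core and an E-box (CACGTG), and these motifs do not overlap in the printed windows. Of 32851 promoter windows of the same length, 4.63% held the OCT core, 12.6% the SOX core, 7.95% the KLF core and 7.15% the E-box, so matches of each motif are frequent. The Eras window has 8 CG dinucleotides and 60% GC, and the Tcl1 window has 11 CG dinucleotides and 56.7% GC, beside a median of 7 CG dinucleotides over all windows.

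All genes together came to 603278 FPKM in the condition with the lowest sum and 832607 FPKM in that with the highest, with 2756 to 5090 genes at 0. The pluripotency factor gene Nanog stood at 227 FPKM, Pou5f1 (Oct4) at 199 FPKM and Sox2 at 248 FPKM at 0 h. The number of reads is not given. Low values of long genes moved in steps, from which a 1 kb gene at 1 FPKM stood at between 14.3 and 49.7 steps. The steps are a rough guide to depth and are not counts, since each value combines 2 libraries. The cells re-seeded from 0 and 24 h were the most finely resolved. A set of 12 fibroblast markers had a sum of 807 FPKM at 0 h. At 24 h this sum was 75.4 FPKM, and from 36 h on it lay between 21.8 and 41.0 FPKM. In re-seeded cells this sum ran from 6.74 FPKM in 0 h –dox to 151 FPKM in 96 h –dox. Collagen genes led it, with Col1a1 at 229 FPKM at 0 h.

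On the FPKM scale, which is per length, Dppa5a stood far above the other members in all 15 conditions. It made up between 76.4% and 95.7% of the summed FPKM of the 6 genes, and was the 24th most abundant gene of the table at 0 h and the 15th in 0 h –dox. Its highest level was 5217 FPKM, in 0 h +dox, and its lowest was 51.5 FPKM, in 96 h –dox. Next in abundance was Dppa4, with a median of 96.9 FPKM over the 15 conditions, followed by Dppa2 (19.7 FPKM), Eras (12.4 FPKM), Dppa3 (10.9 FPKM) and Tcl1 (4.72 FPKM). Dppa4 also varied least, by 14.5-fold between its highest and lowest condition, whereas Dppa3 varied by 338-fold and Tcl1 by 305-fold. The highest condition was 0 h for Dppa3 and Tcl1, 24 h for Dppa4, 0 h –dox for Dppa2 and Eras, and 0 h +dox for Dppa5a.

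**Figure D1:**
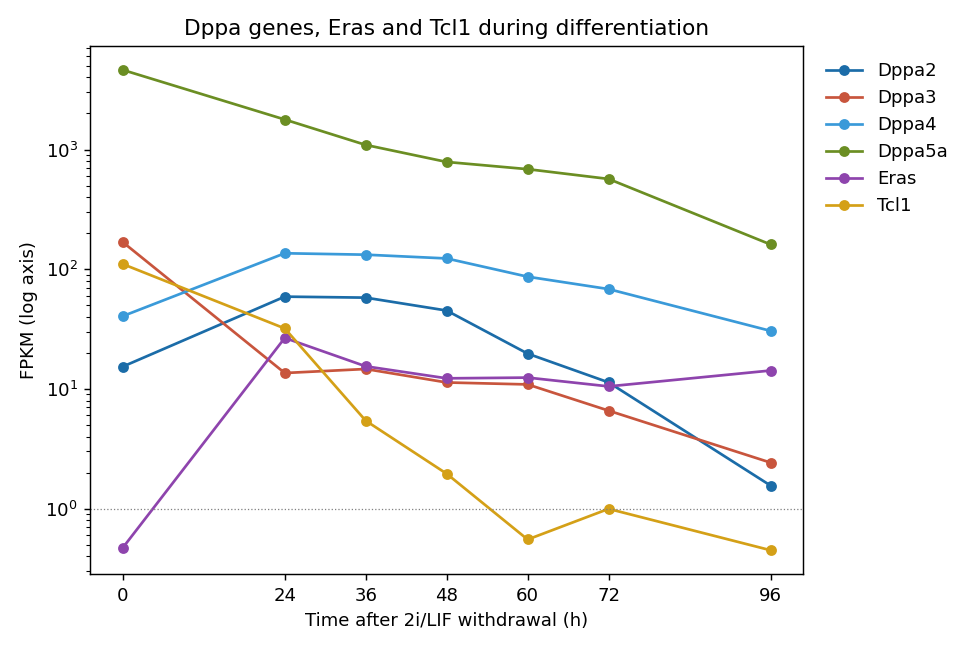
Levels of Dppa2, Dppa3, Dppa4, Dppa5a, Eras and Tcl1 (FPKM, log axis) against hours after 2i/LIF withdrawal. Each point is the 1 deposited value of a condition, with 2 replicates combined and no error available, and the dotted line marks 1 FPKM. Dppa2, Dppa4 and Eras stand higher at 24 h than at 0 h, whereas Dppa3, Dppa5a and Tcl1 stand lower.

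The time course asked how these genes changed when 2i and LIF were withdrawn. The members split evenly at 24 h, when 3 were called higher than at 0 h (Dppa2, Dppa4 and Eras) and 3 lower (Dppa3, Dppa5a and Tcl1). Over all 12884 genes tested, 8.64% were called higher and 14.3% lower. All later timepoints share this 0 h value, so the comparisons with 0 h are not independent of each other. At 0 h the fibroblast markers were also at their highest, and their part in the differences from 0 h was not tested.

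Eras was the member whose level was most different from 0 h at 24 h. Its 7 values from 0 to 96 h were 0.472, 26.7, 15.4, 12.3, 12.4, 10.5 and 14.2 FPKM. It was thus nearly unexpressed in 2i/LIF, at about 8.02 steps, and stood 56.5-fold higher at 24 h (log2 ratio 5.82), the 13th highest ratio of 12811 genes. From 36 h on it stayed within a narrow range and was still 30.2-fold above 0 h at 96 h, when the other 5 members were at their lowest in the time course. The Eras locus overlaps the 3′ end of Pcsk1n by 135 bases on the opposite strand, and the sources do not say whether strand was used in the quantification.

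The neighbouring genes Dppa2 and Dppa4 also stood higher at 24 h, and later declined to different depths. Dppa2 read 15.4, 59.0, 57.9, 45.1, 19.7, 11.3 and 1.56 FPKM over the 7 timepoints. Dppa4 read 40.6, 136, 132, 123, 86.6, 68.2 and 30.5 FPKM. Dppa2 was 3.84-fold and Dppa4 3.35-fold above 0 h at 24 h. At 96 h Dppa2 was 9.86-fold below its 0 h level, whereas Dppa4 was 1.33-fold below and was not called. Dppa4 exceeded Dppa2 by 2.30-fold at 24 h, by 4.39-fold at 60 h, and at 96 h by 19.6-fold. Dppa2 and Dppa4 thus held similar proportions up to 48 h, where the ratio was 2.72, and Dppa2 then fell further.

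Dppa3 and Tcl1 were the members furthest below their 0 h level at 96 h, by 69.4-fold and 246-fold. Dppa3 read 168, 13.6, 14.7, 11.3, 10.9, 6.58 and 2.42 FPKM. Tcl1 read 110.3, 32.0, 5.42, 1.96, 0.552, 0.995 and 0.449 FPKM. Dppa3 was 12.4-fold lower at 24 h and then changed little up to 60 h, while Tcl1 was 3.45-fold lower at 24 h and fell by a further 5.90-fold from 24 to 36 h. By 60 h Tcl1 was 200-fold below 0 h, and its values from 60 h on were below 1 FPKM. The ratio of Dppa3 at 24 h was the 130th lowest of 12811 genes.

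Dppa5a declined at each sampled time and stayed abundant throughout. It read 4620.35, 1780.2, 1092, 787, 685, 568 and 161 FPKM from 0 to 96 h. The values correspond to a 2.60-fold difference at 24 h, an 8.14-fold difference at 72 h and a 28.7-fold difference at 96 h. Even so, at 96 h Dppa5a was still the 571st most abundant gene.

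Later on, 3 members were called higher than at 0 h after 36 and 48 h, 2 after 60 h (Dppa4 and Eras) and 1 after 72 and 96 h (Eras). Over all genes, the share called higher was 11.3%, 12.1%, 13%, 15% and 16.8% in the order 36, 48, 60, 72 and 96 h. The members called lower were Dppa3, Dppa5a and Tcl1 from 36 to 72 h, and Dppa2 as well at 96 h. The share of all genes called lower was 16.8%, 17%, 16.1%, 15.9% and 16.4% in the same order.

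Between successive timepoints, the interval from 72 to 96 h had the most members called lower. Dppa2 (7.27-fold), Dppa3 (2.72-fold), Dppa4 (2.23-fold) and Dppa5a (3.53-fold) were all called lower at 96 h than at 72 h, beside 5.01% of all genes. Dppa2 had the 26th lowest ratio of 12759 genes in that interval. Tcl1 was already below 1 FPKM and could not be called, and Eras read 1.36-fold higher. In the earlier intervals, 1 member was called lower from 24 to 36 h (Tcl1, with 6.28% of all genes) and 1 from 36 to 48 h (Tcl1, 2.01%). From 48 to 60 h 2 were called lower (Dppa2 and Tcl1, with 4.27% of all genes), and from 60 to 72 h 0 were, beside 2.27% of all genes. From 24 h on, no member was called higher in any interval, beside 5.44% of all genes from 24 to 36 h, 2.78% to 48 h, 4.97% to 60 h, 2.97% to 72 h and 5.1% to 96 h.

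The second question was what serum/LIF without differentiation did to these genes. The 0 h –dox cells went from 2i/LIF to 48 h in serum/LIF, in which the iPSCs had been cultured before 2i/LIF. The change of medium and the re-seeding cannot be told apart. In these cells 3 members were called higher than at 0 h, beside 12% of all genes, and 1 lower, beside 10.1%. Eras was at 29.6 FPKM, 62.7-fold above 0 h, the 8th highest ratio of 13020 genes. Dppa2 was at 65.0 FPKM (4.23-fold higher) and Dppa4 at 127 FPKM (3.14-fold higher). Dppa3, at 9.44 FPKM, was 17.8-fold lower. These cells had left 2i for serum with LIF still present, and which of these changes the differences followed was not tested.

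Tcl1 and Dppa5a differed from the other 4 genes in this comparison, since neither was called. Tcl1 was at 70.4 FPKM against 110.3 FPKM at 0 h (1.57-fold lower), and Dppa5a was at 4282 FPKM against 4620.35 FPKM. With values rescaled to the same sum in every condition, the log2 ratio of Dppa5a turned from -0.11 to 0.13, so no direction is given for it. The fibroblast marker sum was 807 FPKM at 0 h and 6.74 FPKM in 0 h –dox, with 11 of 12 markers called lower, and its part in these differences was not tested.

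**Figure D2:**
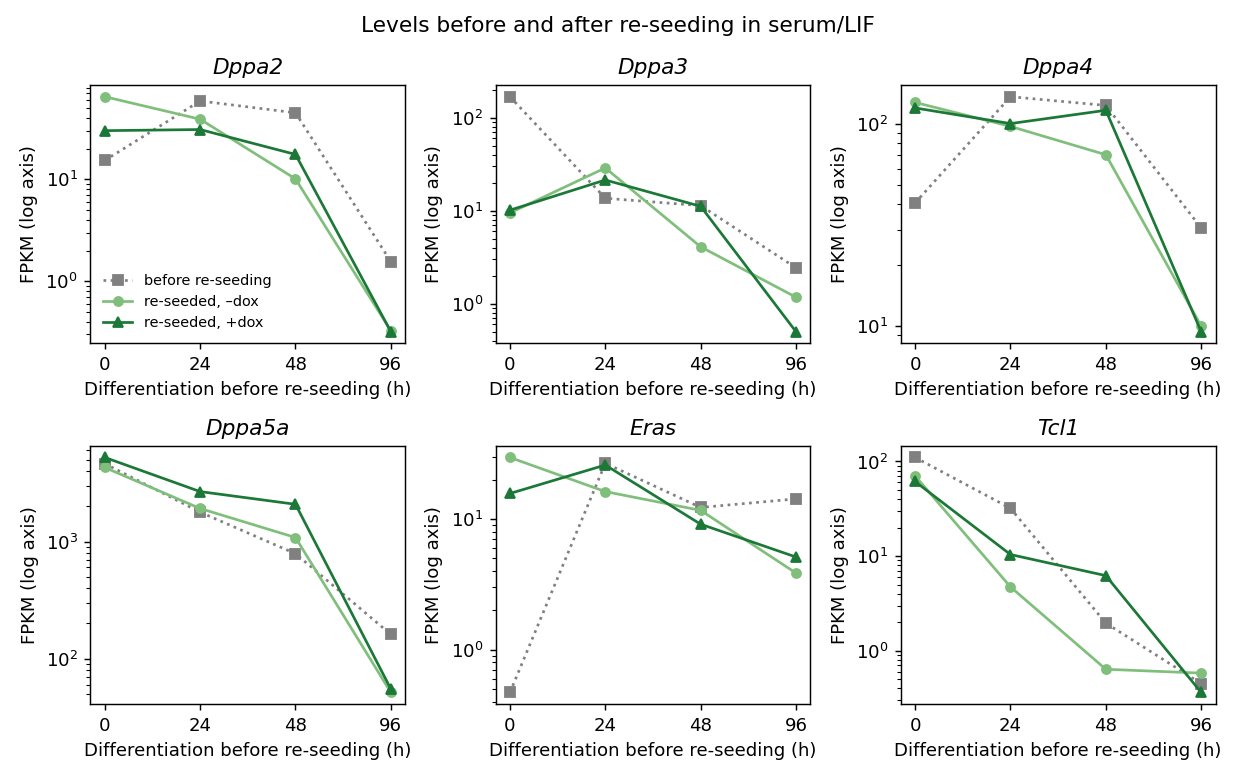
Levels of the 6 genes (FPKM, log axes with a different range in each panel) against the hours of differentiation before re-seeding. Grey squares are cells before re-seeding, light green circles are cells re-seeded for 48 h without dox and dark green triangles are those with dox, each being 1 deposited value without error. With and without dox, all 6 genes have their lowest re-seeded level in cells from 96 h, and Tcl1 shows the widest gap between –dox and +dox, at 48 h.

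Re-seeding after increasing times of differentiation asked whether the genes returned in serum/LIF. From 0, 24, 48 and 96 h, Dppa2 read 65.0, 39.1, 10.1 and 0.326 FPKM in –dox cells. Dppa4 read 127, 96.9, 70.2 and 9.99 FPKM. Dppa5a read 4282, 1913, 1081 and 51.5 FPKM. In all of these series the level was lower after a longer time of differentiation, least steeply for Dppa4.

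For the other members, Eras read 29.6, 16.2, 11.6 and 3.86 FPKM in –dox cells re-seeded from 0, 24, 48 and 96 h. Tcl1 read 70.4, 4.72, 0.636 and 0.579 FPKM. Dppa3 read 9.44, 28.8, 4.08 and 1.17 FPKM. Dppa3 was the only member with its highest –dox level in cells re-seeded from 24 h, where it was 3.05-fold above 0 h –dox. Tcl1 showed the sharpest loss, since cells differentiated for 24 h held 6.71% of the 0 h –dox level after re-seeding, and those differentiated for 48 h held 0.904%. At 48 h, by contrast, Dppa4 held 55.2%, Dppa3 43.2%, Eras 39.4%, Dppa5a 25.3% and Dppa2 15.6% of their 0 h –dox levels.

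Relative to 0 h –dox, which these comparisons share, 1 member was called higher (Dppa3) and 2 lower (Dppa5a and Tcl1) in 24 h –dox, beside 8.72% and 11.4% of all genes. In 48 h –dox 5 members were called lower, all but Dppa4, beside 17.4% of all genes, and 0 higher, beside 15.1%. In 96 h –dox all 6 were called lower, beside 21.7% of all genes, while 21.5% were called higher. The size of that difference ran from 7.66-fold for Eras and 8.07-fold for Dppa3 to 122-fold for Tcl1 and 200-fold for Dppa2.

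The re-seeded –dox cells were also compared with the cells they were seeded from. For 24 h, Dppa3 was called higher (28.8 FPKM against 13.6 FPKM before re-seeding) and Tcl1 lower (4.72 FPKM against 32.0 FPKM), beside 14.9% and 10.6% of all genes. For 48 h, Dppa2, Dppa3 and Tcl1 were called lower, by 4.46-fold, 2.77-fold and 3.07-fold, beside 11.5% of all genes, and 0 higher, beside 15.3%. For 96 h, 5 members were called lower, all but Tcl1, beside 11.2% of all genes, and 0 higher, beside 12.4%. Tcl1 was below 1 FPKM both before and after. Between 2.07-fold for Dppa3 and 4.79-fold for Dppa2 separated the 96 h –dox cells from the cells at 96 h. The fibroblast marker sum was 29.6 FPKM at 96 h and 151 FPKM in 96 h –dox, and its part in the difference was not tested.

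The +dox cells were re-seeded in the same medium with dox added to induce OSKM. Dppa2 read 30.1, 30.9, 17.6 and 0.319 FPKM in +dox cells re-seeded from 0, 24, 48 and 96 h. Dppa4 read 119.55, 100.1, 116 and 9.38 FPKM. Dppa5a read 5217, 2666, 2078 and 55.1 FPKM. Dppa4 therefore stayed within 1.19-fold of its 0 h +dox level in cells re-seeded from 24 and 48 h, and all 3 genes had their lowest +dox level in cells re-seeded from 96 h.

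The same +dox cells had Dppa3 at 10.1, 21.4, 11.1 and 0.498 FPKM in the order 0, 24, 48 and 96 h. Eras read 15.7, 25.9, 9.12 and 5.12 FPKM. Tcl1 read 61.4, 10.4, 6.21 and 0.362 FPKM. Dppa3 was again highest in cells re-seeded from 24 h, and Eras was as well.

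Against the cells before re-seeding, the +dox cells from 0 h had Dppa4 and Eras called higher and Dppa3 lower, beside 11.9% and 11.5% of all genes. Dppa2 missed a call there at 1.96-fold. For 24 h, Tcl1 was called lower (3.08-fold), beside 10.9% of all genes, and 0 members higher, beside 15.3%. For 48 h, Dppa5a (2.64-fold) and Tcl1 (3.18-fold) were called higher, beside 14.8% of all genes, and Dppa2 lower (2.56-fold), beside 11.7%. In cells re-seeded from 48 h, Tcl1 thus exceeded its level before re-seeding with dox, whereas without dox it was 3.07-fold below that level. For 96 h, the 5 members other than Tcl1 were called lower, beside 10.5% of all genes, and 0 higher, beside 7.64%.

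Relative to 0 h +dox, which the following comparisons share, Dppa3 was called higher (2.11-fold) and Tcl1 lower (5.92-fold) in 24 h +dox, beside 8.97% and 9.78% of all genes. In 48 h +dox, Dppa5a (2.51-fold) and Tcl1 (9.89-fold) were called lower, beside 13.4% of all genes, and 0 members higher, beside 11.8%. In 96 h +dox all 6 members were called lower, beside 19.2% of all genes, by between 3.06-fold for Eras and 170-fold for Tcl1, while 16.6% of all genes were called higher.

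Dppa2 and Eras differed most between +dox and –dox in cells re-seeded from 0 h, and Dppa3, Dppa4, Dppa5a and Tcl1 in those from 48 h. In cells re-seeded from 48 h, Tcl1 was 9.76-fold higher with dox (6.21 FPKM against 0.636 FPKM), the 38th highest ratio of 12618 genes. Dppa3 was 2.73-fold higher in the same cells (11.1 FPKM against 4.08 FPKM). These 2 members were called higher, beside 6.56% of all genes, and no member was called lower, beside 6.46%. A 1 kb gene at 1 FPKM stood at 14.7 steps in 48 h –dox, so the low Tcl1 value behind this ratio rests on few steps. Dppa5a was 1.92-fold higher and lay just short of the 2-fold limit, Dppa2 was 1.74-fold higher and Dppa4 1.66-fold higher. Eras differed from the other 5, since it read 9.12 FPKM with dox and 11.6 FPKM without. Even with dox, Tcl1 reached 10.1% of its 0 h +dox level, whereas Dppa4 reached 97.4%.

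At the other times fewer members differed. In cells re-seeded from 24 h, Tcl1 was called higher with dox (10.4 FPKM against 4.72 FPKM, 2.2-fold), beside 2.87% of all genes, and no member was called lower, beside 3.4%. Eras was 1.60-fold higher with dox at this time, the 852nd highest ratio of 12696 genes. In cells re-seeded from 0 h, Dppa2 was called lower with dox (30.1 FPKM against 65.0 FPKM, 2.16-fold), beside 5.61% of all genes. Eras was 1.89-fold lower in the same cells (15.7 FPKM against 29.6 FPKM), just short of a call, and no member was called higher, beside 3.62%.

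With and without dox, all 6 genes had their lowest re-seeded level in cells re-seeded from 96 h. Dppa3 was called lower with dox (0.498 FPKM against 1.17 FPKM), beside 11.1% of all genes, and no member was called higher, beside 6.67%. The other 5 genes differed by 1.60-fold or less. Dppa2 and Tcl1 were below 1 FPKM in both conditions.

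**Figure D3:**
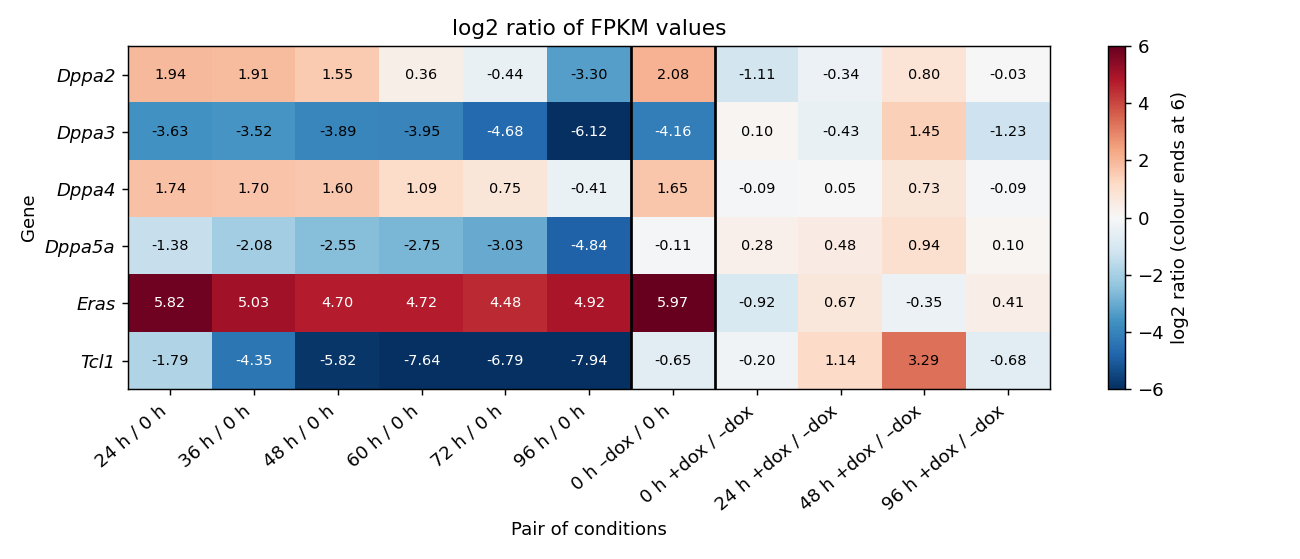
log2 ratios of FPKM values for the 6 genes (rows) and 11 pairs of conditions (columns), written in the cells, with red for higher and blue for lower in the condition named before the slash. The first 6 columns and the seventh share the 0 h value, and the last 4 compare +dox with –dox. Eras is positive and Dppa3 negative in all of the first 7 columns, and the largest of the dox ratios is 3.29, for Tcl1 at 48 h.

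The transcripts of the reprogramming factors themselves are given for reference, since the table holds 1 value per gene and does not separate transgene from endogenous RNA. In cells re-seeded from 48 h, Pou5f1 (Oct4) read 72.6 FPKM without and 204 FPKM with dox, and Klf4 read 4.68 and 14.6 FPKM. Sox2 read 43.4 and 87.8 FPKM, and Myc read 35.9 and 18.7 FPKM. In cells re-seeded from 96 h, Pou5f1 read 2.63 FPKM without and 9.95 FPKM with dox. For cells re-seeded from 0 h, Pou5f1 read 360 FPKM without and 425 FPKM with dox. The other factor transcripts read lower with dox in those cells. Sox2 read 224 FPKM without and 122 FPKM with dox, Klf4 84.8 and 66.7 FPKM, and Myc 24.5 and 18.7 FPKM.

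Across the 15 conditions the profiles of the 6 genes were compared by Pearson's r of log2(FPKM + 1). These values are a description over conditions that share cells of origin, and they carry no test. Dppa2 and Dppa4 were the most alike pair, with r = 0.95 and a Spearman rho of 0.93, and r was 0.92 over the 7 timepoints alone. Dppa5a had r = 0.85 with Dppa2, 0.82 with Dppa4, 0.80 with Tcl1 and 0.79 with Dppa3. Its Spearman rho was 0.59 with Dppa2, 0.56 with Dppa4, 0.92 with Tcl1 and 0.66 with Dppa3. Over the 7 timepoints alone its r was 0.93 with Dppa3 and 0.90 with Tcl1, but 0.27 with Dppa4. The lowest r values were those of Eras, with -0.16 with Dppa3 and 0.03 with Tcl1, although r was 0.62 with Dppa4. Over the timepoints alone its r with Dppa3 was -0.82. The place of Eras depended on the measure. Its Spearman rho over the 15 conditions was 0.775 with Dppa2, 0.707 with Dppa4, 0.382 with Tcl1 and 0.307 with Dppa3.

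**Figure D4:**
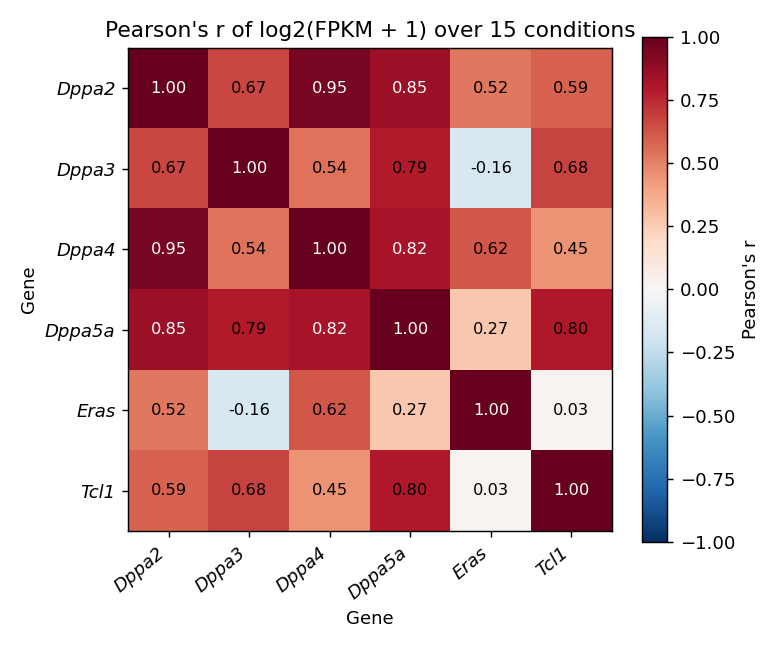
Pearson's r of log2(FPKM + 1) between each pair of the 6 genes over the 15 conditions, written in the cells and coloured from -1 (blue) to 1 (red). Dppa2 and Dppa4 share the highest value off the diagonal, 0.95, and the row of Eras holds the lowest values, down to -0.16 with Dppa3.

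The genes most like each member were sought by the same measure among the 9067 genes that reached 10 FPKM in some condition. For Dppa2 they were Gm13242, Gm13251 (both r = 0.97) and Dnmt3l (r = 0.96), the cofactor of the de novo DNA methyltransferases. Dnmt3l read 34.7 FPKM at 0 h, 542 FPKM after 24 h and 421 FPKM in 0 h –dox. For Dppa4 they were Sult4a1 (0.97), Phc1 (0.96), which encodes a Polycomb protein, and 2410007B07Rik (0.95). For Dppa5a they were Tdgf1 (0.96), which encodes a co-receptor for Nodal, Gnpda1 (0.96) and Triml2 (0.96). None of these genes was shared between members.

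For Eras, the most alike gene was Rarg (0.95), which encodes a retinoic acid receptor and read 7.57 FPKM in 2i/LIF, 75.8 FPKM at 24 h and 80.7 FPKM in 0 h –dox. Rhbdd3 (0.88) and Prss50 (0.87) came next. Tcl1 was closest to Rfx2 (0.98), a transcription factor gene, D230025D16Rik (0.98) and Cobl (0.97). Dppa3 was closest to Gm6792 (0.92), Vps26a (0.91) and 1700097N02Rik (0.91).

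The nearest measured genes on either side of each member were also compared. Apart from Dppa4, the nearest to Dppa2 was Morc1, with r = 0.88. Dppa3 lies between Gdf3 (r = 0.80), which encodes a TGF-beta family ligand, and Nanog (r = 0.69). Dppa5a lies 7931 bases from Ooep, a KH-domain gene of the oocyte, and their profiles had r = 0.94. Pcsk1n, which overlaps Eras, had r = 0.85, and Hdac6, on the other side of Eras, had 0.30. Tcl1 was unlike its neighbours Glrx5 (r = -0.80) and Tunar (0.02).

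Copies elsewhere in the genome limit what the values of the Dppa genes mean. At 90% identity or more over at least 300 bases, the longest Dppa2 transcript matched 6 processed pseudogenes (up to 99.3%), that of Dppa3 matched 2 (up to 98.2%) and that of Dppa4 matched 2 (up to 99.4%). The Dppa5a transcript matched 7 genes, 6 of them pseudogenes (up to 96.9%), and Pigp was the one in the table, where it ran between 23.6 and 87.2 FPKM. Reads could have been split with or lost to these copies, so the absolute levels of the Dppa genes are uncertain. No such copy was found for Eras or Tcl1.

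Genes around each member were described from fixed lists. The 2-cell-like genes, which Dppa2 and Dppa4 are known to activate, were near 0 throughout. Of 16 listed, 12 were in the table, and they summed to 1.64 FPKM or less in all conditions but 24 h –dox, where they reached 8.42 FPKM with Gm20767 at 1.87 FPKM and Zscan4f at 1.44 FPKM. In that condition Dppa2 (39.1 FPKM) and Dppa4 (96.9 FPKM) were below their highest levels, and Dppa3 was at its highest outside 0 h.

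The DNA methylation genes, the setting in which Dppa3 acts, moved in both directions. At 24 h, 4 of 12 were called higher than at 0 h and 1 lower, with a median log2 ratio of 0.49 beside -0.01 over all genes, and in 0 h –dox 6 were called higher and 0 lower. The shares of all genes called higher and lower were 8.64% and 14.3% at 24 h and 12% and 10.1% in 0 h –dox. Dnmt3a, a de novo methyltransferase, read 9.71 FPKM in 2i/LIF and 179.7 FPKM at 24 h, and Dnmt3b read 26.8 and 259.5 FPKM. Uhrf1, the cofactor that Dppa3 can hold back, read 159 FPKM at 0 h and 143 FPKM in 0 h –dox. Dppa3 itself was 168 FPKM at 0 h and 9.44 FPKM in 0 h –dox.

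The partners of Eras and Tcl1 in PI3K and Akt signalling differed less than Eras and Tcl1 in the comparisons given here. Of 20 PI3K, Akt and mTOR genes, 0 were called at 24 h, beside 8.64% of all genes called higher and 14.3% lower, with a median log2 ratio of 0.03 beside -0.01 over all genes. With dox at 48 h, where Tcl1 differed most, 0 of the 20 were called, beside 6.56% of all genes called higher and 6.46% lower. Akt1 was at its highest, 127 FPKM, in 96 h –dox, where Tcl1 read 0.579 FPKM.

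Close relatives of the members did not share a common pattern. Of 6 Ras family genes, 0 were called higher and 2 lower at 24 h, beside 8.64% and 14.3% of all genes, against the 56.5-fold rise of Eras. Hras ran between 89.5 and 341 FPKM, and Mras read 16.7 FPKM in 2i/LIF and 0.14 FPKM after 36 h. Of the Tcl1 relatives, Tcl1b1, Tcl1b2 and Tcl1b4 did not exceed 0.404 FPKM, and Mtcp1 ran between 4.35 and 10.9 FPKM. Of the KH-domain relatives of Dppa5a, 3 of 4 tested genes were called lower at 24 h and 4 of 4 at 48 h, beside 14.3% and 17% of all genes. The genes called at 24 h were Ooep, Khdc1a and Khdc1c. Khdc1a and Khdc1c were low, at 3.06 and 2.15 FPKM at 0 h. Both read 0 in 0 h –dox, where Dppa5a was not called. Khdc3 read 77.0 FPKM in 2i/LIF, 59.0 FPKM after 24 h and 3.99 FPKM after 48 h, and Ooep read 68.1, 33.9 and 15.2 FPKM. Dppa1, the only other listed gene with a Dppa name that was in the table, did not exceed 0.591 FPKM.

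Naive and formative pluripotency genes moved in opposite directions over the time course, as the members did. Of 16 naive genes, 7 were called lower and 1 higher at 24 h (median log2 ratio -0.94), beside 14.3% and 8.64% of all genes, and 14 were called lower at 48 h, beside 17%. Dppa3, Tcl1 and Dppa5a were among the genes called lower at both times. Of 9 formative and primed genes, all 9 were called higher at 24 h (median 3.18) and at 48 h, beside 8.64% and 12.1% of all genes. Eras, Dppa2 and Dppa4 were called higher at the same times, and all 3 were also among the genes called higher in 0 h –dox, where 6 of 8 tested formative genes were, beside 12% of all genes. Another tested formative gene, Sall2, was called lower there (1.76 FPKM at 0 h and 0.840 FPKM in 0 h –dox), beside 10.1% of all genes. With dox at 48 h, 8 of 15 tested naive genes were called higher and 5 of 9 formative genes lower, beside 6.56% and 6.46% of all genes. Klf4 was among these 8 naive genes (14.6 FPKM with dox and 4.68 FPKM without). It is 1 of the factors that dox induces, and its transgene and endogenous RNA are not separated. The formative list did not move in 1 direction, since Otx2 was called higher (27.7 FPKM with dox and 13.1 FPKM without). The 2 members called with dox at 48 h were Tcl1 and Dppa3, both higher. Of 14 germline genes, 3 of the 12 tested were called higher in the same comparison, beside the same 6.56% of all genes.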

How the data were processed

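Polyadenylated RNA of 30 mouse iPSC libraries was sequenced on an Illumina HiSeq. The authors mapped reads to mm10 with TopHat 2.0.14, quantified Gencode vM4 transcripts with Cufflinks 2.2.1, and used Cuffdiff to combine both replicates of each condition into the deposited FPKM value. Library normalization and strandedness are not given in the sources used here. The deposited call columns (5), which hold the authors' response to dox at each time and a time course cluster, were not used. Groups came from the sample titles.

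Values were used as deposited, with Python 3.11.15, numpy 2.4.6 and pandas 2.3.3. A gene was called at 2-fold or more with at least 1 FPKM in the higher condition. With 1 value per condition there was no test. List medians used FPKM + 0.1, and likeness used log2(FPKM + 1). Copies were sought with BLAST 2.17.0 in Gencode M21 transcripts. The calls were tested on simulated data. Text names the 6 members, the 3 genes most like each, nearest genes, up to 4 genes of each list with the highest FPKM and the OSKM genes. Mras, Pigp and Sall2 were named after their values were seen. Some results are not reported here. Members and lists were chosen with earlier results of these data known. Alternative minimums, folds, pseudocounts and scalings were tried. No counts, replicate values or other assays were analysed here.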

Additional observations from a re-analysis of the deposited data

How the results depend on the processing

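No paired analysis was possible because the table holds 1 combined value per condition and no replicate columns, and for the same reason no replicate could be left out. Of 224 alternative values for 28 counts of called members, 205 stayed within 1.5 times the count as reported. The alternatives for members higher than at 0 h and for re-seeded against original cells were chosen after seeing the data. With a fold of at least 1.5, the members called higher became 2 at 72 h, 2 with dox at 24 h and 5 with dox at 48 h, and those called lower became 2 with dox at 0 h, 2 in 0 h –dox against 0 h and 3 in 24 h –dox against 24 h. With a fold of at least 3, the members called higher became 1 at 60 h, 0 with dox at 24 h, 1 with dox at 48 h and 0 in 24 h –dox against 24 h, and those called lower with dox became 0 at 0 h and 0 at 96 h. A minimum of 5 FPKM gave 0 lower with dox at 96 h and 3 lower in 96 h –dox against 96 h, and a pseudocount of 1 FPKM gave the same 0 and 3, and also 0 higher with dox at 24 h. Rescaling to the same sum gave 2 higher at 72 h and 2 lower with dox at 0 h, while it put the median log2 ratio of all genes between -0.20 and 0.36. These moves follow from members that lie near the limits, such as Dppa5a (1.92-fold with dox at 48 h) and Eras (1.89-fold with dox at 0 h). For 66 log2 ratios and their 264 alternative values, no ratio past the 2-fold limit changed direction, and 4 below it changed sign under equal sums, to -0.13 for Dppa3 with dox at 0 h, -0.06 for Dppa4 with dox at 24 h, -0.08 for Dppa5a with dox at 96 h and 0.13 for Dppa5a in 0 h –dox against 0 h. The most alike genes depended on the measure. By Spearman rho, 1 of 3 was shared for Dppa2, Dppa3, Dppa4 and Eras, 0 for Tcl1 and 3 for Dppa5a. Over the 7 timepoints alone, 0 were shared for Dppa2, Dppa3, Dppa4 and Dppa5a and 1 for Eras and Tcl1. Depth is unknown, so values below 1 FPKM, such as Eras at 0 h and Tcl1 from 60 h on, are the least certain.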
